A study of Homo sapiens with 4 samples.

Results

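The genes described here are 9 members of the p53 network: *TP63* and *TP73*, the p53-related transcription factors; *MDM2*, *MDM4*, and *PPM1D*, which restrain p53; and *GADD45A*, *SESN1*, *ZMAT3*, and *TP53I3*, which p53 activates. They were taken by name from the 20007 protein-coding genes of the annotation (GENCODE 44, hg38), and all 9 matched. The data were peak lists from 4 CUT&RUN libraries of HSSY II, a human synovial sarcoma cell line that carries the SS18::SSX1 fusion. One pair of libraries was made with an antibody to SS18::SSX and the other with an antibody to WDR5, each after 4 days with DMSO, the solvent, or with 2.5 μM MS67, a PROTAC (a molecule that couples its target to an E3 ligase for degradation) directed at WDR5. All 4 libraries held 5% NIH-3T3 mouse fibroblasts as a spike-in. Each condition had 1 library, so no value below carries a replicate error or a test, and differences between lists describe these libraries. The lists hold no expression values. They therefore could not be used to check the cell line by its markers, and a peak says nothing on its own of a gene's transcription.

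Among the members, MDM2 is the E3 ligase that targets p53 for degradation and is itself a p53 target, MDM4 is its partner that holds p53 inactive, and PPM1D is a phosphatase that reverses the phosphorylation set by DNA damage kinases. p63 and p73 share the DNA-binding domain of p53, and both genes have an internal promoter that gives forms without the first activation domain. WDR5 is a subunit of the KMT2/MLL complexes that methylate lysine 4 of histone H3, and is found chiefly at promoters. SS18::SSX joins a SWI/SNF subunit to an SSX tail and brings the remodeling complex to chromatin where SWI/SNF is not usually held.

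A total of 6 stretches of hg38 under these peaks are printed because the results turn on them, each 5′ to 3′ on the strand of its gene and with no base in a GENCODE exon of that gene. Capitals mark the p53 half-site in *GADD45A*, and GGGCGG (the GC box bound by SP and KLF factors) or CCAAT (bound by NFY) elsewhere, on either strand. The *GADD45A* stretch (chr1:67686700-67686899, plus strand) lies in an intron and is the distal end of its WDR5 peak with DMSO. The *MDM2* stretch (chr12:68807899-68808176, plus strand) runs from the start of a WDR5 peak with MS67 to the base before the first GENCODE start site. The *TP53I3* stretch (chr2:24083979-24084188, minus strand) is intronic and lies under the WDR5 peaks of both treatments. The *SESN1* stretch (chr6:109009642-109009863, minus strand) is the WDR5 peak with MS67 upstream of an internal start site. Of the *TP73* stretches, the first (chr1:3652247-3652427, plus strand) is the WDR5 peak with DMSO at the upstream promoter, and the second (chr1:3689940-3690144, plus strand) is the one SS18::SSX peak with MS67 found at any member.
GADD45A intron: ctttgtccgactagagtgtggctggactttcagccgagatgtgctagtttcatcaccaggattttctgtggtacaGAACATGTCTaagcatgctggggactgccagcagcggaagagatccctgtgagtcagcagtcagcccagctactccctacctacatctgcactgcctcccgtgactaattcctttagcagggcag
MDM2 promoter: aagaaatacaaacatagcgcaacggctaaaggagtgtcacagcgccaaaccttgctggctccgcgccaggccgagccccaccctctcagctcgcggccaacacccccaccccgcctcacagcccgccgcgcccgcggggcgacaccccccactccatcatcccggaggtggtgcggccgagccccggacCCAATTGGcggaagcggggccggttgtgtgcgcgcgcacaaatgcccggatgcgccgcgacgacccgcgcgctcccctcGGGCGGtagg
TP53I3 first intron: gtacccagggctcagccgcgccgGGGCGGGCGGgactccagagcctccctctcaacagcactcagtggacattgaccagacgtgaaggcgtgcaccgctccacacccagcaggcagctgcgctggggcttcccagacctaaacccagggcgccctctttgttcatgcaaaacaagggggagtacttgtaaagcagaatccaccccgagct
SESN1 internal promoter: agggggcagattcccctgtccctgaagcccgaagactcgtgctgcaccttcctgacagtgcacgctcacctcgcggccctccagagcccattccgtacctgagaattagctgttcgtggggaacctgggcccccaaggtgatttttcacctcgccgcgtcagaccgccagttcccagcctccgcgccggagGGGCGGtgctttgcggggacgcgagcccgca
TP73 promoter: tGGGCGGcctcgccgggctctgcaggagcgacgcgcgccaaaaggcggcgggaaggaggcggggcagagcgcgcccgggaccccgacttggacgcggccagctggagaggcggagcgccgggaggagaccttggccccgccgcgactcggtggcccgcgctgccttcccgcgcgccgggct
TP73 intron: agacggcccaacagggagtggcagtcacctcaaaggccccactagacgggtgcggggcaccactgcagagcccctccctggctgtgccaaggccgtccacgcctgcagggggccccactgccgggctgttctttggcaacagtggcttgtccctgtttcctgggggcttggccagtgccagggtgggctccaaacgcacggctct

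The depth behind these peaks was solved from each peak's fold and −log10 p, which together fix the number of fragments stacked at the summit and the local background. The genome-wide coverage, taken as the lowest background in a list, was 0.368 fragments per bp for WDR5 with DMSO and 0.168 with MS67, and 0.541 for SS18::SSX with DMSO and 0.737 with MS67. The WDR5 library with MS67 was thus the shallower of its pair (ratio 0.458), and the SS18::SSX library with MS67 the deeper (ratio 1.36). The lists held 35605 and 14123 WDR5 peaks and 15141 and 1175 SS18::SSX peaks, with DMSO and MS67, respectively. Levels below are summit fragments divided by this coverage ("times coverage"), with exact Poisson intervals at 95% that cover counting error only. Dividing by each library's own coverage removes any change common to a whole library, and the spike-in was not applied. These levels therefore cannot show a global gain or loss of binding. A q is that of the peak caller within 1 library, given as −log10, and does not compare libraries.

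Within the gene bodies and 10 kb on each side, the WDR5 DMSO list held 22 peaks at 8 of the 9 members, and the WDR5 MS67 list held 9 peaks at 5 members. The SS18::SSX DMSO list held 27 peaks at 4 members, of which 24 were in *TP73*, and the SS18::SSX MS67 list held 1 peak, also in *TP73*. Over all protein-coding genes, the share with a WDR5 peak in this window was 75.1% with DMSO and 54.2% with MS67, and the share with an SS18::SSX peak was 31.9% and 3.64%. A promoter peak, with its centre from 1000 bp upstream to 100 bp downstream of an annotated start site, was present for WDR5 at 6 members with DMSO (43.0% of all genes) and 5 with MS67 (27.7%). For SS18::SSX it was present at 2 members with DMSO (*TP73* and *MDM2*, 13.4% of all genes) and at 1 with MS67 (*TP73*, 0.720%).

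**Figure D1:**
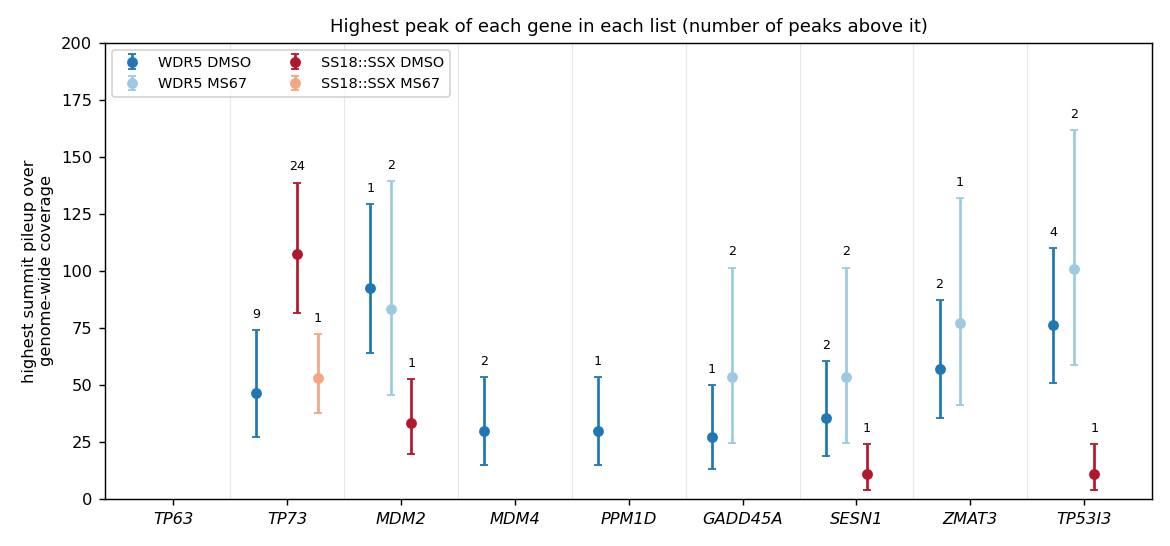
Highest summit of each gene in each list, in summit fragments over genome-wide coverage (vertical axis), with exact 95% Poisson intervals for counting error and the number of peaks in the window printed above. *TP63* has no point, *TP73* is the only gene where the SS18::SSX summit is above the WDR5 summit, and *MDM4* and *PPM1D* have a point in the WDR5 DMSO list alone.

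*TP63*, which specifies stratified epithelium, had no peak in any of the 4 lists across its 265888 bp on chromosome 3 (189631389 to 189897276, plus strand) or the 10 kb beside it. Of the 1004 protein-coding genes at least as long, 87 (8.67%) had none in any list, and of all genes 21.5% had none. None of its 8 annotated start sites had a promoter peak.

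*TP73* (chromosome 1, 3652516 to 3736201, plus strand) was the member with the most peaks. With DMSO, 24 SS18::SSX peaks lay from position 3651256 to 3722951, a stretch of 71696 bp. Only 27 genes had more, led by *PTPRN2* with 107. The summit lay in an intron for 23 of the 24 and upstream of the gene for the other. The peak of highest −log10 q (10.95, 3652644 to 3653586) was centred 599 bp downstream of the canonical start, with 47 summit fragments or 86.9 times coverage. The next by −log10 q (8.35) lay well inside the gene, at 3715751 to 3716300, with 55 fragments or 102 times coverage. The third (−log10 q 8.28, 3651256 to 3651795) was centred 991 bp upstream, just inside the promoter limit, and is the only SS18::SSX DMSO peak counted at a *TP73* promoter. The highest summit was further in, at 3701840 to 3702319, with 58 fragments or 107 times coverage.

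The local background was high along the whole stretch. Across the 24 peaks it was 16.5 to 38.8 times coverage (median 32.1), which placed it between the 79.8th and the 96.0th percentile of all SS18::SSX DMSO peaks, against a median of 5.72 times coverage over that list. The fold of each peak over this background was modest, from 2.05 to 4.01. The SS18::SSX DMSO peaks at *TP73* were therefore summits of modest fold on a high local background. In fragments the summits were not small, at 25 to 58 (median 40.5), against a median of 16 over that list. Any control library is not given, so it is not known whether this background is SS18::SSX signal. The number of peaks depended on how the stretch was divided: joining peaks within 1 kb left 16 SS18::SSX DMSO peaks over the 9 members in place of 27.

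With MS67, none of the 24 SS18::SSX peaks was overlapped by a peak. One peak was called in the gene, at 3689940 to 3690144 (printed above), with 39 fragments, 52.9 times coverage (37.6 to 72.3), −log10 q 3.50, and a fold of 2.71. It lay 592 bp from the nearest DMSO peak and was centred 630 bp upstream of the internal start site at 3690672, which makes it a promoter peak by the rule used here. Its local background was 18.7 times coverage. The DMSO peaks on either side had local backgrounds of 34.4 and 32.0 times coverage in their own library. The single MS67 peak thus stood on a background that was also raised above its list's median of 12.2, but by less.

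WDR5 with DMSO had 9 peaks in the *TP73* window, and WDR5 with MS67 had none. The 9 had 4 to 17 summit fragments, with a median of 13, the same as over the WDR5 DMSO list. Their −log10 q was low, from 1.40 to 3.76. Their local background was 1.37 to 12.8 times coverage (median 7.89), against a median of 4.91 over that list. The raised background at *TP73* was thus not seen with the SS18::SSX antibody alone. Of the 9 peaks, 2 were at promoters. One (3652247 to 3652427, printed above, 15 fragments, 40.8 times coverage) was centred 179 bp upstream of the canonical start, and the other (3697757 to 3697974, 15 fragments, 40.8 times coverage) was centred 181 bp upstream of an internal start. None of the 9, scaled to the coverage of the MS67 library, would have reached the smallest −log10 p in the MS67 list. Of the 24 SS18::SSX DMSO peaks, 3 overlapped a WDR5 DMSO peak. Outside the gene, the centres of 2 further peaks of the window lay in promoters of neighbours, which are named after their values were seen: the WDR5 peak at 3650964 to 3651135 at *WRAP73*, and the WDR5 peak at 3746196 to 3746402 at *CCDC27*. The strongest SS18::SSX peak also had its centre in a *WRAP73* promoter, so the genes cannot be told apart at that end.

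**Figure D2:**
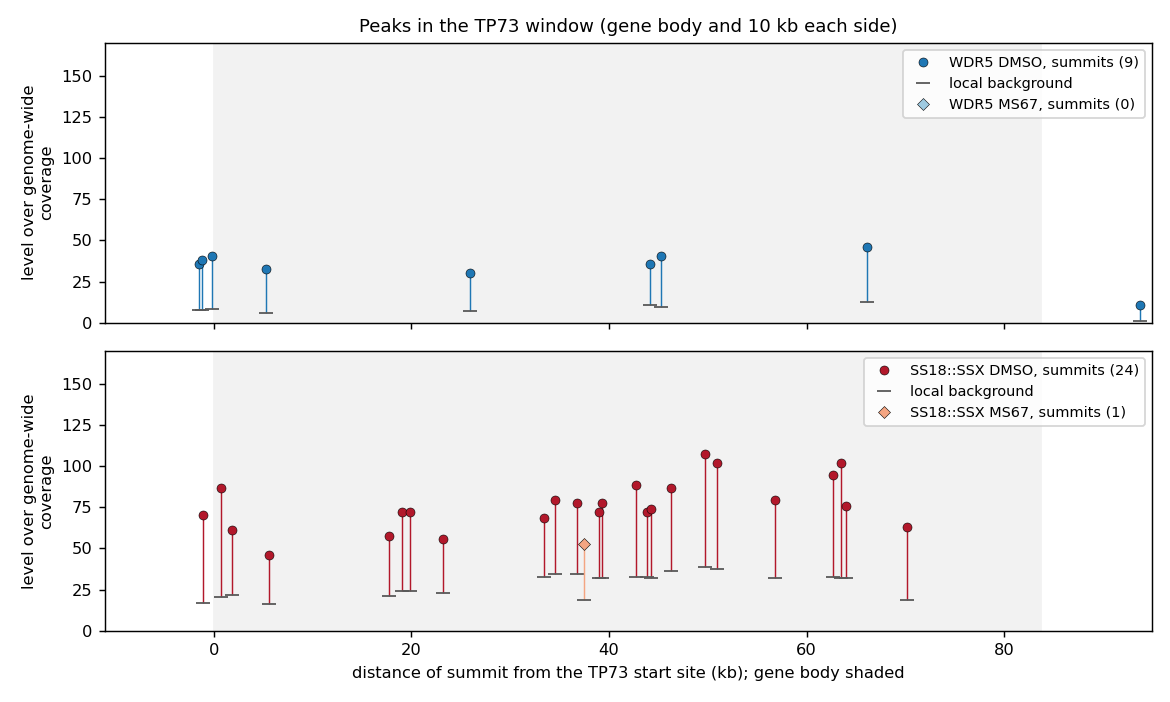
Peaks in the *TP73* window by distance of the summit from the canonical start (horizontal axis, kb). Symbols give the summit and grey dashes the local background, both over genome-wide coverage (vertical axis), for WDR5 (top) and SS18::SSX (bottom). The 24 SS18::SSX DMSO peaks stand on backgrounds of 16.5 to 38.8, and the 1 MS67 peak has a background of 18.7.

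*MDM2* (chromosome 12, 68808177 to 68845544, plus strand) had promoter peaks of both proteins with DMSO, at different places. The WDR5 DMSO peak (68807327 to 68807664) was centred 682 bp upstream of the canonical start, with 34 fragments, 92.5 times coverage (64.1 to 129), and −log10 q 14.4, in the top 1.63% of its list. The SS18::SSX DMSO peak (68808315 to 68808619) was centred 290 bp downstream of that start and 3 bp from another annotated start, with 18 fragments, 33.3 times coverage (19.7 to 52.6), and −log10 q 7.01. They were 650 bp apart. The SS18::SSX peak ended 404 bp before the RefSeq start at 68809024, one of those of the intronic promoter through which p53 activates the gene.

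With MS67, the *MDM2* SS18::SSX peak was absent, although its summit scaled to the deeper MS67 library would have had 24 fragments and passed the smallest −log10 p of that list. WDR5 with MS67 had 2 peaks at the *MDM2* promoter, neither at the place of the DMSO peak. The first (68807899 to 68808086, 14 fragments, 83.1 times coverage, 45.4 to 139) lay 234 bp nearer to the gene, at the start of the printed stretch. The second (68808258 to 68808567, 13 fragments, 77.2 times coverage, 41.1 to 132) overlapped the site of the SS18::SSX DMSO peak by 253 bp. These levels belong to different places and do not compare the treatments at 1 site. The DMSO summit, scaled to the MS67 coverage, would have had 15 fragments and passed. *MDM2* therefore had a WDR5 promoter peak in both lists by count, but no peak of one list overlapped a peak of the other. Whether WDR5 moved within the promoter was not tested.

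*MDM4* (chromosome 1, 204516379 to 204558120, plus strand) had 1 WDR5 promoter peak with DMSO (204515880 to 204516439, 11 fragments, 29.9 times coverage, −log10 q 5.39), and a weaker one at 204507785 to 204508115, upstream of the gene (10 fragments). Neither had a WDR5 peak with MS67 within 1 kb. The promoter peak, scaled to 5 fragments, would have passed the smallest −log10 p of the MS67 list, and the upstream one would not. *PPM1D* (chromosome 17, 60600193 to 60666280, plus strand) had 1 intronic WDR5 peak with DMSO (60603446 to 60603639, 11 fragments, −log10 q 2.46), centred 1052 bp upstream of an internal start and so just outside the promoter limit, and none with MS67, where its scaled summit would not have passed. Neither gene had an SS18::SSX peak in either list.

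Among the targets, *TP53I3*, a quinone oxidoreductase tied to oxidative stress in cell death, had the strongest WDR5 peak by −log10 q of any member in both lists. With DMSO it ran over 1532 bp across the promoter (chromosome 2, 24083722 to 24085253, where the gene lies on the minus strand, 24077433 to 24085861), with 28 fragments, 76.2 times coverage (50.6 to 110), and −log10 q 16.5, in the top 0.826% of its list. With MS67 it was narrower (24083979 to 24084717, 739 bp, wholly inside the DMSO peak), with 17 fragments, 101 times coverage (58.8 to 162), and −log10 q 10.0, in the top 1.01%. The intervals overlap, but overlap is not a test of a difference between the levels, and none was made. The summits were 73 bp apart, both in the intronic stretch printed above, which holds 2 overlapping GC boxes. No SS18::SSX peak lay at this promoter. The other window peaks of *TP53I3* lay by the far end of the gene, where 2 of 3 WDR5 DMSO peaks, the second WDR5 MS67 peak, and an SS18::SSX DMSO peak of 6 fragments had their centres in a promoter of *FAM228B*. One of these WDR5 DMSO peaks and the WDR5 MS67 peak were centred in a promoter of *SF3B6* as well. These neighbours too were named after their values were seen.

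*ZMAT3*, which encodes an RNA-binding zinc finger protein, lies on chromosome 3 (178960121 to 179072215, minus strand) and had 2 WDR5 peaks with DMSO on either side of its canonical start. The upstream one (179071916 to 179072092, 14 fragments, 38.1 times coverage, 20.8 to 63.9) was kept with MS67 (179071901 to 179072070, 13 fragments, 77.2 times coverage, 41.1 to 132), with summits 16 bp apart. The downstream one (179071226 to 179071440, 21 fragments, 57.1 times coverage, −log10 q 10.9) was the stronger with DMSO and had no overlapping MS67 peak, although its summit scaled to 9 fragments would have passed. At *ZMAT3*, the weaker DMSO peak was thus the one called with MS67. The intervals of the upstream peak overlap between the treatments.

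*SESN1*, a stress-induced sestrin that restrains mTORC1, lies on chromosome 6 (108984309 to 109094846, minus strand) and kept both of its WDR5 promoter peaks with MS67. At the canonical start, the DMSO peak (109094575 to 109094766, 13 fragments, 35.4 times coverage) and the MS67 peak (109094710 to 109094915, 9 fragments, 53.4 times coverage) shared 57 bp, and both centres also lay in a promoter of *CEP57L1*, the divergent neighbour. At the internal start, the DMSO peak (109009723 to 109010040, 8 fragments, 21.8 times coverage, 9.40 to 42.9) and the MS67 peak (109009642 to 109009863, 8 fragments, 47.5 times coverage, 20.5 to 93.6) shared 141 bp, and the intervals overlap. Neither DMSO summit would have passed when scaled, yet both places had a peak with MS67. *SESN1* also had 1 intronic SS18::SSX peak with DMSO (109082438 to 109082635, 6 fragments, 11.1 times coverage) far from any start, and none with MS67.

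*GADD45A*, a stress sensor of cell cycle arrest and DNA repair (chromosome 1, 67685201 to 67688334, plus strand), was the one member to have a WDR5 promoter peak with MS67 and none with DMSO. That peak (67685248 to 67685404, 9 fragments, 53.4 times coverage, 24.4 to 101) lay in an exon beside the canonical start. Of all genes without a WDR5 DMSO promoter peak, 11.0% had one with MS67. Further in, a DMSO peak (67686540 to 67686899, 10 fragments, 27.2 times coverage) and an MS67 peak (67686514 to 67686683, 8 fragments, 47.5 times coverage) shared 144 bp, and their counting intervals overlap. No SS18::SSX peak was found.

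The DMSO peak in the *GADD45A* intron holds a p53 half-site at 67686775 to 67686784, 18 bp from its summit and in capitals in the printed stretch. It was the only exact match in the 22 WDR5 DMSO peaks of the members, and the MS67 peak ended 91 bp before it. In the printed stretch it is followed without a gap by aagcatgctg, which falls short of an exact half-site in its last base. Such pairs were not searched for, so how common they are is not given. A single half-site is common, as 3206 of the 35605 windows of 360 bp centred on the WDR5 DMSO peaks hold one. One of the 27 SS18::SSX DMSO peaks, in *TP73* at 3654254 to 3654712, also holds one, as do 9.40% of the windows of that list.

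**Figure D3:**
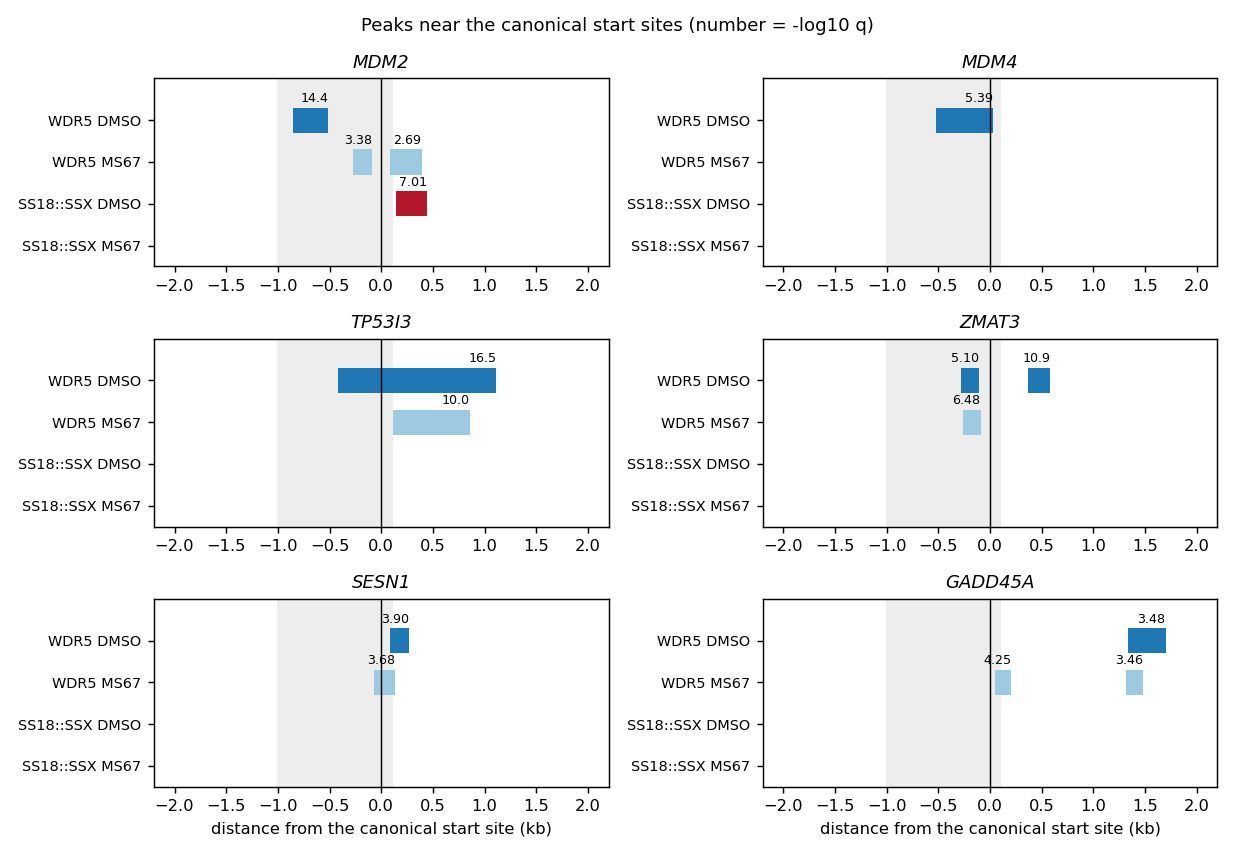
Peaks within 2.2 kb of the canonical start of 6 members (horizontal axis, kb, in the direction of transcription), by list, with −log10 q printed on each and the promoter of that start shaded. The WDR5 peaks of *MDM2* do not overlap between the treatments, that of *MDM4* is in the DMSO list alone, and those of *TP53I3* and *SESN1* and the upstream one of *ZMAT3* overlap.

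Taken by promoter, WDR5 was kept with MS67 at 4 of the 6 members that had it with DMSO (*MDM2*, *SESN1*, *ZMAT3*, and *TP53I3*) and was not called at 2 (*TP73* and *MDM4*). Over all genes with a WDR5 DMSO promoter peak, 50.1% had none with MS67. By single peaks, 16 of the 22 WDR5 DMSO peaks (72.7%) had no overlapping MS67 peak, against 75.0% of all WDR5 DMSO peaks. A share this close to that of the whole list sets nothing apart for these genes. Depth moved with this count: scaled to the MS67 coverage, 5 of the 22 summits would have passed the smallest −log10 p of the MS67 list (43.7% of the whole list), and 3 of those 5 were without an overlapping peak (62.2% in the whole list), namely the single *MDM2* peak, the *MDM4* promoter peak, and the stronger *ZMAT3* peak. The *MDM2* and *ZMAT3* peaks had an MS67 peak within 1 kb, and the *MDM4* peak had none. The scaled value did not separate the peaks found with MS67 from the others, since of the 6 DMSO peaks with an overlapping MS67 peak, 2 passed and 4 did not (both of *SESN1*, that of *GADD45A*, and 1 beside *TP53I3*).

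For SS18::SSX, all 27 DMSO peaks of the members had no overlapping MS67 peak, against 94.2% of the whole list. Here depth went the other way. All 27 scaled summits would have passed in the deeper MS67 library, as 96.9% of the list would, of which 94.0% had no overlapping peak. The scaling takes the local background to follow coverage, and the median local background over these lists was 5.72 times coverage with DMSO and 12.2 with MS67; its part in the loss was not tested. Because 24 of the 27 were in *TP73*, the count is mainly that of 1 gene, and the others were 1 each at *MDM2*, *SESN1*, and the flank of *TP53I3*. By promoter, *MDM2* had none with MS67 and *TP73* had one at another start site, while 95.9% of all genes with an SS18::SSX DMSO promoter peak had none with MS67. Of the 27, 4 (14.8%) overlapped a WDR5 DMSO peak, 3 in *TP73* and 1 beside *TP53I3*, against 33.7% of the whole list. Neighbouring peaks on the *TP73* stretch are not independent, so no interval is given. The *MDM2* peaks of the 2 proteins did not overlap.

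In sequence, the member peaks were rich in G and C, as were the lists. The median GC content was 60.9% for the 22 WDR5 DMSO peaks (58.5% over the list), 70.0% for the 9 WDR5 MS67 peaks (62.7%), and 63.0% for the 27 SS18::SSX DMSO peaks (60.6%). GGGCGG was present in 7 of the 22 WDR5 DMSO peaks (12813 of the 35605 peaks of that list), in 7 of the 9 WDR5 MS67 peaks (40.8% of its list), and in 4 of the 27 SS18::SSX DMSO peaks (27.9%). These counts move with GC content and with peak length. The 7 WDR5 MS67 peaks with GGGCGG include both of *SESN1* and both of *TP53I3*, so genes are counted more than once. Of the 2 WDR5 MS67 peaks at the *MDM2* promoter, only the second holds it. RefSeq promoters (250 bases before to 50 after a start, GRCh38.p14) were found for 8 of the 9 members, *GADD45A* being the exception. Among these, GGGCGG was in a promoter of *MDM2*, *PPM1D*, *SESN1*, *TP73*, and *ZMAT3* (56.8% of 21613 promoters of protein-coding genes), and CCAAT in one of *MDM2*, *PPM1D*, *SESN1*, *TP63*, *TP73*, and *ZMAT3* (34.9%). CACGTG, the E-box, was in 1 promoter of *TP73* (8.35%), and the p53 half-site in 1 of *SESN1* (6.22%). Several of these genes have more than 1 RefSeq promoter, which raises their count above the share per promoter.

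The rest of the p53 pathway was described with a list of 40 further genes (upstream kinases, regulators of p53 stability, cofactors, and targets). WDR5 was at a promoter of 27 of them with DMSO (67.5%, beside 43.0% of all genes) and 16 with MS67 (40.0%, beside 27.7%). Of the 27, 14 kept it and 13 did not, beside 50.1% of all such genes that did not, and 2 had one with MS67 alone. SS18::SSX was at a promoter of 10 with DMSO (25.0%, beside 13.4%) and of none with MS67 (0.720% of all genes). A gene counts in these shares if any of its annotated start sites has a peak. The shares are not matched for the number of start sites per gene. With the canonical start alone, WDR5 was at 22 of the 40 with DMSO and 11 with MS67, and SS18::SSX at 8 with DMSO. The share of all genes by that rule was not counted. By role, SS18::SSX DMSO promoter peaks were found at 4 of 8 cell death targets, 2 of 5 repair and nucleotide targets, 1 of 5 arrest targets, 1 of 4 metabolic targets, 1 of 3 other targets, 1 of 6 stability genes, and at none of the 5 upstream kinases or the 4 cofactors. All 4 cofactors and 4 of the 5 kinases had WDR5. The roles hold 3 to 8 genes each, and the exact binomial interval for the cell death targets, 15.7 to 84.3%, shows how little such counts fix, so no role is set apart from another.

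The share of all genes with promoter peaks of both WDR5 and SS18::SSX was not counted, so the next number sets nothing apart for the pathway. Both proteins were at a promoter of 9 of the 40 with DMSO. These were *COP1*, an E3 ligase for p53; *PLK2*, a polo-like kinase; *RRM2B*, a ribonucleotide reductase subunit; *POLH*, a translesion polymerase; *FAS*, the death receptor; *TP53INP1* and *PERP*, cell death effectors; *SESN2*, a sestrin; and *PHLDA3*, an AKT inhibitor. The highest SS18::SSX summits among them were at *PLK2* and *RRM2B*, with 14 fragments or 25.9 times coverage each (14.2 to 43.4; −log10 q 8.10 and 7.44). The lowest was at *COP1*, with 5 fragments. The WDR5 and SS18::SSX DMSO peaks do not overlap at *COP1* or *POLH*, and at *SESN2* they meet only at position 28259298. The tenth gene with an SS18::SSX promoter peak, *BBC3*, a BH3-only cell death effector named after its values were seen, had no WDR5 promoter peak, and its SS18::SSX summit (19 fragments, 35.1 times coverage, 21.2 to 54.9) was the highest of the 10 and close to the 33.3 of *MDM2*. With MS67, WDR5 was called at promoters of *PLK2*, *RRM2B*, *POLH*, *FAS*, *TP53INP1*, and *PHLDA3*, and not at *COP1*, *PERP*, or *SESN2*. The highest WDR5 promoter summit, with DMSO and then MS67, was 40.8 and 35.6 times coverage at *PLK2*, 68.0 and 65.3 at *FAS*, 114 and 107 at *TP53INP1*, 73.5 and 65.3 at *PHLDA3*, and 32.6 and 47.5 at *POLH*, and the counting intervals overlap at each of these 5 genes. At *POLH* the WDR5 peaks of DMSO and MS67 do not overlap, and at *PHLDA3* the MS67 peak overlaps the weaker of 2 DMSO peaks (43.5). At *RRM2B* the summit was 62.6 (39.7 to 93.9) with DMSO and 172 (115 to 247) with MS67, the only one of the 6 where the intervals do not overlap. *RRM2B* was singled out after these values were seen. As levels are relative to each library's coverage, they do not show that bound WDR5 rose there. Over the 8897 WDR5 DMSO peaks overlapped by an MS67 peak, the ratio of levels, MS67 over DMSO, had a median of 1.27. Only peaks called in both lists enter this ratio, and the highest MS67 summit was taken where several overlapped. The median level of all WDR5 peaks was 35.4 with DMSO and 47.5 in the shallower MS67 library. The ratio therefore does not compare the treatments.

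**Figure D4:**
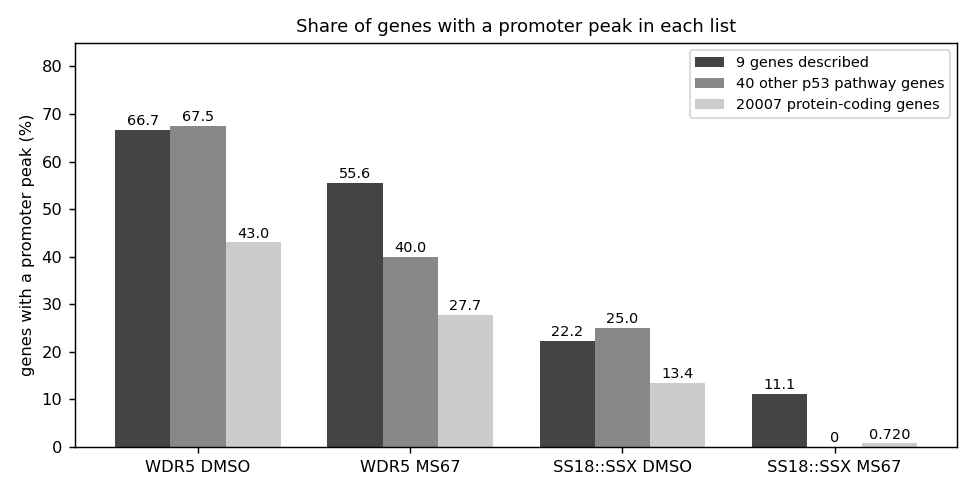
Share of genes with a promoter peak (vertical axis, percent) in each list, for the 9 members, the 40 further pathway genes, and all 20007 protein-coding genes. Members and pathway genes lie above all genes for WDR5 in both lists, and the 11.1% of members with SS18::SSX and MS67 is *TP73* alone. The shares are not matched for the number of annotated start sites per gene.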

How the data were processed

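Peaks of 4 CUT&RUN libraries were analysed, 1 per condition. The authors aligned reads to hg38 and to mm10 for the spike-in, removed PCR duplicates with Picard, and called peaks on each library with MACS2, whose options and any control library are not given in the sources used here. The deposited lists give for each peak a fold over local background (a ratio), −log10 p and −log10 q, the summit, and a score (10 times −log10 q, not used). None of these is scaled by the spike-in.

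Summit fragments and local background were solved from fold and −log10 p under MACS2's own formulas, and 100% of peaks gave whole fragments to within 0.001 in −log10 p. This step and the overlap counts were tested on simulated data. A DMSO peak was kept where an MS67 peak overlapped it by 1 bp or more. A promoter was counted as kept where the gene had a promoter peak in both lists, at the same place or not. To set depth aside, each DMSO summit and its background were multiplied by the ratio of coverages, and the resulting −log10 p was compared with the smallest of the MS67 list. Genes were those of GENCODE 44; scripts ran in Python 3.11.15 with scipy 1.17.1. Named beside the 9 members were pathway genes with promoter peaks of both proteins with DMSO and those that kept SS18::SSX with MS67 (none). *CEP57L1* was named because it shares a member's promoter peak. Named outside these rules were *WRAP73*, *CCDC27*, *FAM228B*, and *SF3B6*, whose promoters hold the centres of other window peaks. *BBC3* and *PTPRN2*, the gene with the most SS18::SSX DMSO peaks, were also named outside them. The members and the lists were chosen with earlier results of these data known. The alternatives were other windows, promoter limits, peak thresholds, overlaps, and reduced lists.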

Additional observations from a re-analysis of the deposited data

How the results depend on the processing

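No paired analysis was possible because each condition had 1 library. Of 90 alternative values for 16 results, 59 stayed within 1.5 times of a count or within the binomial interval of a share (which takes peaks as independent), and 31 did not. Peaks of −log10 q above 3 and fold above 3 (SS18::SSX) or 6 (WDR5) left 3, 3, 5, and 0 window peaks (WDR5 with DMSO and MS67, then SS18::SSX with DMSO and MS67), 2, 2, and 0 members with a promoter peak of WDR5 DMSO, WDR5 MS67, and SS18::SSX MS67, 5, 4, and 5 pathway genes with one of WDR5 DMSO, WDR5 MS67, and SS18::SSX DMSO, and 0% of SS18::SSX DMSO peaks overlapping WDR5. A −log10 q above 5 left 5, 3, 10, and 0 window peaks, 2 members with a WDR5 MS67 and 0 with an SS18::SSX MS67 promoter peak, and 13, 4, and 3 pathway genes for the first 3 lists. The gene body alone held 14 WDR5 DMSO peaks, and 50 kb each side held 43 for WDR5 DMSO and 17 for WDR5 MS67. The canonical start alone gave 3 members for WDR5 MS67, 1 for SS18::SSX DMSO, and 0 for SS18::SSX MS67. Joining peaks within 1 kb gave 16 for SS18::SSX DMSO. With an overlap of 50% of the peak's length, 90.9% of WDR5 DMSO peaks had no MS67 counterpart. Leaving out *TP73*, an alternative chosen after seeing the data, left 13, 3, and 0 window peaks of WDR5 DMSO, SS18::SSX DMSO, and SS18::SSX MS67. Where a threshold or window lowers a count, fewer peaks or bases enter it by construction. The WDR5 MS67 library was the shallowest, and 17 of the 22 WDR5 DMSO summits of the members, scaled to it, were under the smallest −log10 p of its list, although 4 of these 17 were overlapped by an MS67 peak.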
